A study of Mus musculus with 24 samples.

Results

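The comparison described here set livers that had lost Tsc1 beside livers that had lost Ppara, both on a background without hepatic Cpt2. It used 8 of the 24 libraries of the series, chosen by genotype label alone: 4 libraries of Tsc1Cpt2 L-/- double knockout livers (DKO) and 4 libraries labelled Cpt2L-/- Ppara KO. The 4 Cpt2 L-/- libraries, which lack neither further gene, were used as the common reference for both groups. The remaining 12 libraries were wild type, Tsc1 L-/- and Ppara KO livers, 4 of each.

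All mice were males on the C57BL/6 strain, aged 8 to 10 weeks, and livers were taken after a 24 h fast, so a fast and the loss of Cpt2 were shared by both groups compared. Cpt2 and Tsc1 were removed by Cre driven from the albumin promoter, which acts in hepatocytes. Whether other cells of the liver kept both genes was not tested. How Ppara was removed, and whether its loss was limited to the liver, was not given in the sources used here. The labels number the replicates of each group but do not state that each is a separate mouse, so p-values measure the spread between these libraries. In whole liver, fewer cells of a type and less RNA per cell cannot be told apart.

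Cpt2 is the inner mitochondrial membrane enzyme that hands long-chain fatty acids to β-oxidation, and without it the fasted liver cannot burn them. Pparα is a nuclear receptor that binds fatty acids and, in fasting, switches on the genes of fatty acid uptake, oxidation, ω-hydroxylation, ketogenesis and lipid droplet coating. Tsc1, with Tsc2, holds the kinase complex mTorc1 in check; mTorc1 drives anabolic genes and protein synthesis. The comparison therefore asks which genes separate a Cpt2-deficient liver with active mTorc1 from one without Pparα.

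Library depth was 14470968 to 18940002 counts, and values below are CPM, counts scaled to a common library total after trimmed-mean normalization. Log2 differences are DKO minus the libraries labelled Cpt2L-/- Ppara KO, from the edgeR quasi-likelihood test across all genes, with Benjamini-Hochberg adjusted p-values called at 0.05. SE is the standard error of a log2 difference, over 4 and 4 libraries, or 4 and 3 where replicate 1 of the Cpt2L-/- Ppara KO group was left out.

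The deleted genes were read first. Tsc1 was at 18.1, 15.7, 15.5 and 17.1 CPM in DKO, at 42.4, 50.6 and 43.7 CPM in Cpt2L-/- Ppara KO replicates 2 to 4 and at 24.3 CPM in replicate 1. Every DKO library was below all 4 others, with a log2 difference of −1.27 ± 0.22 (SE, adjusted p = 0.0041) and, without replicate 1, of −1.45 ± 0.13 (SE, adjusted p = 1.46e-05). Ppara was at 272, 171, 268 and 257 CPM in DKO, at 26.2, 46.2 and 41.2 CPM in replicates 2 to 4 and at 91.9 CPM in replicate 1, against 273, 308, 385 and 312 CPM in Cpt2 L-/-. The groups did not overlap for Ppara, with a log2 difference of 2.25 ± 0.35 (SE, adjusted p = 0.00259), or 2.68 ± 0.24 (SE, adjusted p = 1.42e-05) without replicate 1. Cpt2 counts did not check the shared deletion, since Cpt2 L-/- livers held 93.2, 105, 80.3 and 90.6 CPM, close to the 87.8 to 104 CPM of wild type. Cpt2 counts were 84.3, 105, 80.8 and 118 CPM in DKO and only 39.1, 31.7 and 37.4 CPM in replicates 2 to 4, but 126 CPM in replicate 1, a difference of log2 0.75 (adjusted p = 0.219), or of 1.43 (adjusted p = 9.38e-05) without replicate 1.

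Replicate 1 of the Cpt2L-/- Ppara KO group stood apart from its fellows. It held the highest Ppara count and the lowest Tsc1 count of its group, though its Ppara was below and its Tsc1 above every DKO library. On the first principal component of the 8 libraries (50.2% of the variance) it was at 33.8, beside its fellows at 40.9 to 54.4. DKO lay at −49.6 to −39.6 there. On the second principal component (23.8% of the variance) replicate 1 sat at −71.6, while the other 7 libraries lay between −4.8 and 35.5. Over all genes tested its mean distance (Euclidean, log2 CPM) to replicates 2 to 4 was 101.6, against 62.74 among those replicates, and it was 113.3 from DKO. Reads of replicate 1 fell on shorter genes, with a mean gene length per read of 2034 bases against 2209 to 2499 bases in the other 7 libraries. The cause was not tested. Values without replicate 1 are therefore given beside those with it wherever a call changed or a fold moved by over 1.5 times, and the group is called the libraries labelled Cpt2L-/- Ppara KO.

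Short stretches of promoter are shown for genes described below, because they carry the DNA letters known for the factors behind each gene group. The 250 bases before the annotated start of 27025 genes (RefSeq, build GRCm38.p6) were searched on both strands. In the Pparα group, the letters AGGNNANAGGNCA, a strict form of the repeat bound by Pparα with its partner Rxr, were present in 0.914% of all promoters and in 0.77% of those of genes tested. They were found in 3 of the 42 matched promoters of the 54 Pparα targets listed, those of Cidec, Fabp1 and Creb3l3. Of these 3 genes 0 were called by the edgeR fit of the 2 groups with all 8 libraries and all 3 were called higher without replicate 1. The capitals mark the letters in Fabp1 (chr6:71199788-71199847, + strand) and Cidec (chr6:113435939-113435998, − strand), each read 5′ to 3′ along the strand of the gene.
Fabp1: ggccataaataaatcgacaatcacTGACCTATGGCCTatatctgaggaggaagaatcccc
Cidec: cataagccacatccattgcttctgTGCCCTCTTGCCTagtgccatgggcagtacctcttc

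The endoplasmic reticulum (ER) stress response element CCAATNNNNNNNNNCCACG, bound by the factors that answer misfolded protein, was present in 0.13% of all promoters, in 0.169% of those of genes tested and in 9 of the 23 matched ER chaperone genes of 31 listed. Those 9 were Hspa5, Hsp90b1, Calr, Canx, Pdia6, Dnajc3, Creld2, Syvn1 and Derl3. Its letters stand in capitals in Hspa5 (chr2:34772004-34772063, + strand), Hsp90b1 (chr10:86705513-86705572, − strand), Creld2 (chr15:88819499-88819558, + strand), Calr (chr8:84847055-84847114, − strand) and Derl3 (chr10:75893221-75893280, + strand).
Hspa5: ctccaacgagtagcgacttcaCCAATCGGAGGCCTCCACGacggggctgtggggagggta
Hsp90b1: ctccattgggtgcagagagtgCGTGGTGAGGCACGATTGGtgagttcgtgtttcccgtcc
Creld2: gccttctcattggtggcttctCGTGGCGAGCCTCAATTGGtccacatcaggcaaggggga
Calr: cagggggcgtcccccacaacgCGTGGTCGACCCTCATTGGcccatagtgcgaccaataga
Derl3: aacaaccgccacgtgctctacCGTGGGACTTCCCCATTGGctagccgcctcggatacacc

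The lysosomal E-box TCACGTGA, bound by the Tfeb family that mTorc1 keeps out of the nucleus, was present in 0.907% of all promoters, in 1.79% of those of genes tested and in 8 of the 63 matched lysosomal genes of 81 listed. Capitals mark it in Atp6v1a (chr16:44139358-44139417, − strand) and Igf2r (chr17:12769707-12769766, − strand).
Atp6v1a: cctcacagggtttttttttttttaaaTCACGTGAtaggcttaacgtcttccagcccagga
Igf2r: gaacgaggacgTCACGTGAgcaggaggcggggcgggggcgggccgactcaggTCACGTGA

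Among the other motifs searched, TTGCNNAA (C/EBP type) was in 10.8% of all promoters, in 9.44% of those of genes tested and in 14 of 26 matched acute-phase genes. The letters TGATGNAAT (the element of Atf4) were in 0.91% of all promoters, in 0.548% of those of genes tested and in 3 of 38 matched Atf4 targets. Of these 3 targets 0 were called in the fit of all 8 libraries and 1, Fgf21, was called higher without replicate 1. Hits of 2 of the 5 motifs overlapped in 1 promoter, between TCACGTGA and TGATGNAAT. A match here describes the letters and was not tested as a binding site.

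Across the liver transcriptome, 12917 genes were tested and 17.2% were called: 1110 were higher (8.59%) and 1114 were lower (8.62%) in DKO. Leaving out replicate 1 raised the calls to 1726 higher (13.1%) and 1611 lower (12.2%) of 13189 genes, 25.3% in all. Leaving out any 1 DKO library, or replicate 2 of the other group, lowered them to 634 to 674 higher and 568 to 672 lower. limma on log2(FPKM + 1) gave a more uneven split, with 1324 higher and 803 lower. Counts within gene lists moved with single libraries too, so a range beside a count is the lowest and highest number called when each of the 8 libraries was left out in turn. A list count without a share beside it is to be read against the 8.59% higher and 8.62% lower of all genes, or 13.1% and 12.2% without replicate 1. The groups did not overlap for 13.2% of all genes with DKO above and for 11.6% with DKO below (18.2% and 17% without replicate 1), so a lack of overlap in a single gene was common. The median log2 difference over all genes was −0.03 with replicate 1 and −0.01 without it. Genes of fatty acid use stood on the higher side, and amino acid catabolism, the acute phase, ER chaperones and cytochromes P450 of the Cyp1, Cyp2 and Cyp3 families stood on the lower side, as the plot of called members by gene list shows.

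**Figure D1:**
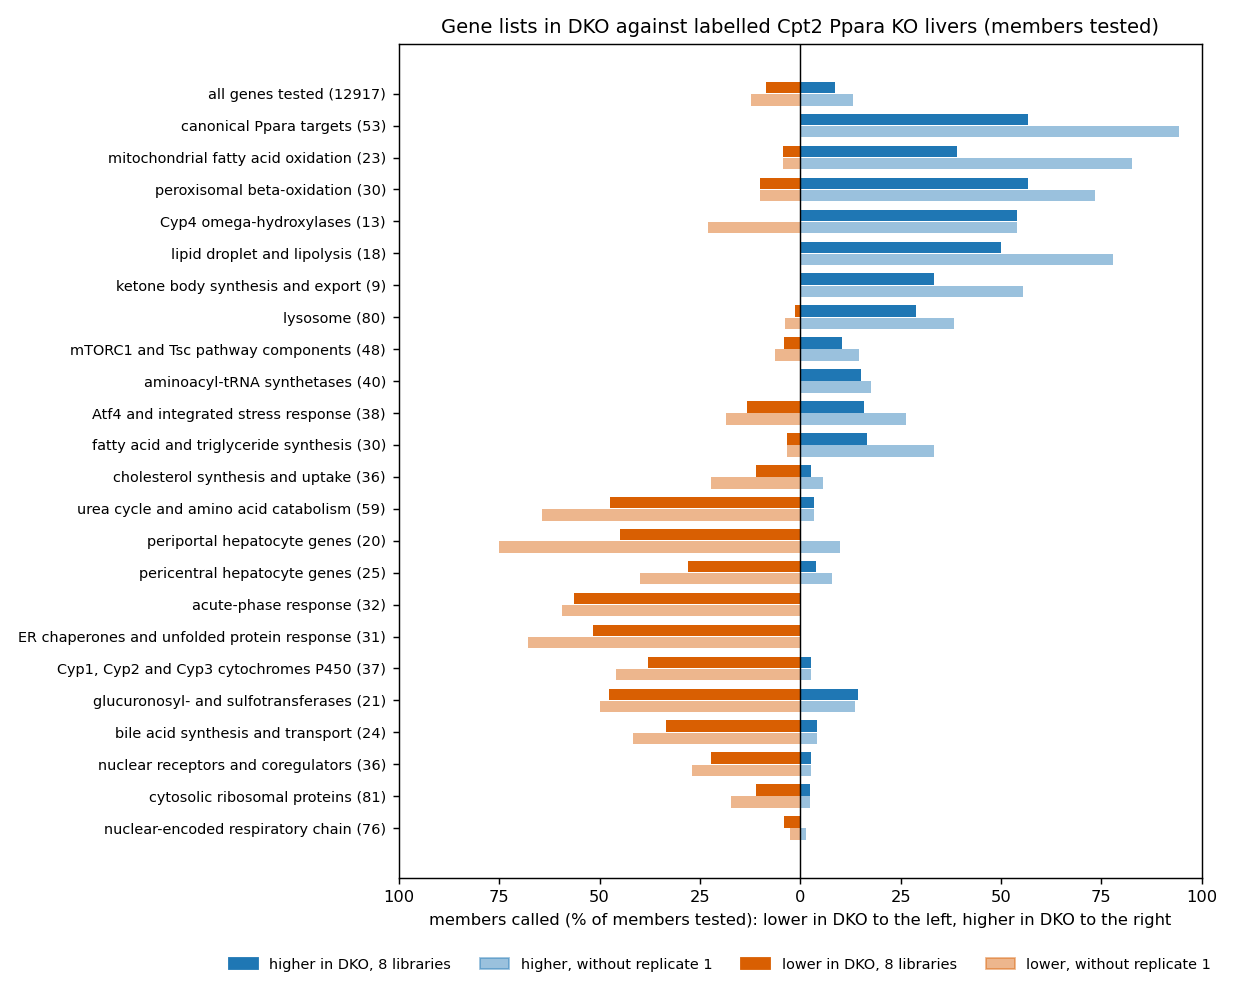
Share of each gene list's tested members (%) called lower (left) or higher (right) in DKO against the libraries labelled Cpt2L-/- Ppara KO, with all 8 libraries and without replicate 1. Of the canonical Pparα targets 30 of 53 were called higher and none lower, while 18 of 32 acute-phase genes and 16 of 31 ER genes were called lower and none higher.

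The Pparα programme was higher in DKO. Of 53 canonical Pparα targets tested, 30 rose and 0 fell (8.59% and 8.62% of all genes), with a median log2 difference of 1.37. Without replicate 1, 50 of the 53 rose and 0 fell, with a median of 1.89. Only Cpt1a, G0s2 and Hilpda of the 53 were then not called, while without replicate 2 the count was 19. Replicate 1 was the highest of its 4 libraries for 46 of the 53 targets (86.8%, against 37.7% of all genes tested), and it exceeded its 3 fellows by over 2-fold for 33 of them (62.3%, against 3.72%).

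Both groups were also set against the shared Cpt2 L-/- livers, so the pair of comparisons that follows is not independent. In DKO against Cpt2 L-/-, 2 of the 53 targets were higher and 2 were lower (5.1% and 2.7% of all genes, 7.79% in either direction), with a median of −0.12. In the libraries labelled Cpt2L-/- Ppara KO against Cpt2 L-/-, 0 were higher and 40 were lower (23.1% of all genes called), with a median of −1.53. Without replicate 1 the lower count was 50 and the median was −1.99 (22.1% of all genes called). In fits of only the 2 groups compared, calls over all genes moved from 679 higher and 359 lower to 1473 and 1151 for DKO. For the other group they moved from 1674 and 1400 to 890 and 789. The targets were not counted in those fits.

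Genes of fatty acid uptake, binding and activation rose in 8 of 22 tested (range 7 to 12) and fell in 2 (12 and 3 without replicate 1). Cd36, the membrane fatty acid translocase, was at 195, 229, 179 and 403 CPM in DKO, at 62.3, 47.9 and 47.1 CPM in replicates 2 to 4 and at 119.8 CPM in replicate 1. All DKO libraries exceeded all others, with a log2 difference of 1.88 ± 0.36 (SE, adjusted p = 0.00716) and of 2.27 ± 0.29 (SE, adjusted p = 0.000278) without replicate 1. Acsl1, the long-chain acyl-CoA synthetase, was at 1486, 1273, 1713 and 2755 CPM in DKO against 332, 356 and 307 CPM and, in replicate 1, 387 CPM. For this gene replicate 1 lay close to its fellows, and the log2 difference was 2.40 ± 0.27 (SE, adjusted p = 0.000635) with it and 2.45 ± 0.27 (SE, adjusted p = 5.56e-05) without it. Slc27a1, a fatty acid transport protein, was also clear of overlap, at 51.1, 22.2, 43.4 and 45.7 CPM in DKO and 8.14, 12.5 and 9.93 CPM in replicates 2 to 4, with 13.1 CPM in replicate 1 (log2 difference 1.91 ± 0.27, adjusted p = 0.00174).

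The fatty acid-binding proteins differed from each other. Fabp1, the abundant liver form, was at 1495, 2176, 1769 and 2482 CPM in DKO and only 83.6, 128 and 156 CPM in replicates 2 to 4, yet replicate 1 held 3431 CPM, above every DKO library. The difference was log2 1.08 ± 1.02 (SE, adjusted p = 0.491) with all 8 libraries and 4.01 ± 0.29 (SE, adjusted p = 2.99e-06) without replicate 1, so its call rested on that library. Fabp3, the heart form, was at 34.2, 86.5, 17.02 and 115 CPM in DKO, at 0, 0 and 0.326 CPM in replicates 2 to 4 and at 3.55 CPM in replicate 1. It was higher in DKO by log2 6.14 ± 1.07 (SE, adjusted p = 0.00451), or by 8.84 (adjusted p = 0.00504) without replicate 1, and it was also higher in DKO than in Cpt2 L-/- livers (log2 3.35, adjusted p = 0.0154), where it was at 6.14, 6.15, 8.51 and 4.32 CPM.

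Mitochondrial β-oxidation followed the same direction. Of 23 genes tested, 9 rose (range 6 to 19) and 1 fell, with a median of 1.01, and without replicate 1 the counts were 19 and 1 with a median of 1.22. Acadvl, which starts the oxidation of very long chains, was at 416, 423, 476 and 528 CPM in DKO, at 125, 126 and 122 CPM in replicates 2 to 4 and at 252 CPM in replicate 1. Hadha, a subunit of the trifunctional protein, was at 859, 914, 1030 and 1197 CPM against 222, 240.2 and 228 CPM, with 624 CPM in replicate 1. Neither gene overlapped between groups. The log2 differences were 1.57 ± 0.26 (SE, adjusted p = 0.0036) for Acadvl and 1.62 ± 0.35 (SE, adjusted p = 0.0116) for Hadha, and 1.89 (adjusted p = 7.72e-06) and 2.12 (adjusted p = 8.70e-06) without replicate 1. Acadm, the medium-chain dehydrogenase, was at 530.5, 555, 552 and 722 CPM in DKO and 371.9, 426 and 371 CPM in replicates 2 to 4, and its value in replicate 1 was 697 CPM. It was called without replicate 1, at log2 0.60 ± 0.17 (SE, adjusted p = 0.0203) as against 0.35 (adjusted p = 0.341).

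Cpt1a, the carnitine palmitoyltransferase of the outer mitochondrial membrane, was an exception in the programme. Its levels were 1452, 1092, 1351 and 1385 CPM in DKO, 879, 1326 and 827 CPM in replicates 2 to 4 and 609.9 CPM in replicate 1, so replicate 3 lay within the DKO range. The difference of log2 0.54 ± 0.26 (SE, adjusted p = 0.168), or 0.39 ± 0.21 (SE, adjusted p = 0.188) without replicate 1, did not pass the test.

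Peroxisomal oxidation genes were higher in DKO as well. Of 30 tested, 17 rose (range 10 to 22) and 3 fell with a median of 0.90, and 22 rose and 3 fell with a median of 1.08 without replicate 1. Ehhadh, the bifunctional enzyme of the pathway, was at 6060, 8439, 8905 and 15830 CPM in DKO and at 132, 154 and 169.8 CPM in replicates 2 to 4. Replicate 1 held 3618 CPM, below all DKO libraries but far above its fellows. With all 8 libraries the difference was log2 3.29 ± 1.07 (SE, adjusted p = 0.0585) and missed the threshold, and without replicate 1 it was 6.02 ± 0.38 (SE, adjusted p = 1.56e-06). Other settings that kept all 8 libraries did call Ehhadh: DESeq2 (3.29, adjusted p = 0.0116), the replicate block (5.22, 0.019), the fit of 3 groups (3.31, 0.0197), all 24 libraries in the fit (3.29, 0.0115) and both limma fits on FPKM (4.86 and 4.88). Abcd2, a peroxisomal fatty acid transporter, was at 22.2, 12.7, 17.02 and 14.1 CPM in DKO against 1.11, 1.67 and 1.73 CPM and, in replicate 1, 2.46 CPM (log2 difference 3.25 ± 0.28, adjusted p = 0.000175). Phyh, the phytanoyl-CoA hydroxylase of α-oxidation, was 1 of the 3 that fell, from 2144, 2430 and 1593 CPM in replicates 2 to 4 and 1677 CPM in replicate 1 to 939.7, 548, 901 and 969.8 CPM in DKO (log2 −1.21 ± 0.25, adjusted p = 0.0104).

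Microsomal ω-hydroxylases of the Cyp4 family rose in 7 of 13 tested and fell in 0, with a median of 1.29, and without replicate 1 rose in 7 and fell in 3. Cyp4a10 was at 3378, 2943, 3572 and 4836 CPM in DKO, at 276, 304 and 297 CPM in replicates 2 to 4 and at 1627 CPM in replicate 1. Its difference was log2 2.58 ± 0.59 (SE, adjusted p = 0.0151), or 3.66 ± 0.23 (SE, adjusted p = 1.56e-06) without replicate 1. Cyp4a14 was at 7380, 7867, 8848 and 11890 CPM in DKO, while replicates 2 to 4 had 185, 200.2 and 294 CPM and replicate 1 had 3251 CPM. Groups did not overlap for either gene, and Cyp4a14 differed by log2 3.22 ± 0.90 (SE, adjusted p = 0.035), or 5.31 ± 0.30 (SE, adjusted p = 1.06e-06) without replicate 1. The Cyp4a14 call was lost when any 1 of the other 7 libraries was left out (2.88 to 3.30) and with no filter (3.25). Cyp4a12a and Cyp4a31 differed by log2 3.26 (adjusted p = 0.0016) and 3.81 (adjusted p = 0.00292), or by 3.99 (adjusted p = 1.58e-07) and 4.71 (adjusted p = 0.000375) without replicate 1. Cyp4a genes lie in 1 cluster and share sequence, so reads of near copies may have been split between them.

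Acyl-CoA thioesterases, which release free fatty acids, rose in 3 of 13 (range 1 to 6) and fell in 1 (6 and 1 without replicate 1). Acot3, a peroxisomal member, was at 42.8, 30.7, 39.1 and 64.4 CPM in DKO, 1.95, 2.99 and 3.12 CPM in replicates 2 to 4 and 15.1 CPM in replicate 1 (log2 difference 2.97 ± 0.58, adjusted p = 0.00765, and 4.03, adjusted p = 4.76e-06 without replicate 1). Acot1, the cytosolic member, was at 343, 539.9, 454 and 1104 CPM in DKO against 106, 60.1 and 93.7 CPM, but replicate 1 held 957 CPM, within the DKO range. Its call appeared without replicate 1 (log2 difference 2.83 ± 0.43 SE, adjusted p = 0.00179 as against 1.03, adjusted p = 0.405).

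Ketone body genes rose in 3 of 9 tested (range 1 to 5), Bdh1 and Slc16a1 among them, and in 5 without replicate 1. Bdh1, which interconverts the ketone bodies, differed by log2 0.95 (adjusted p = 0.0168) and lost its call without DKO replicate 1 (0.84) and with all 24 libraries in the fit (0.95, adjusted p = 0.0746). Slc16a1, the monocarboxylate transporter that exports ketone bodies, was at 128, 167, 169 and 214 CPM in DKO against 38.1, 38.5 and 34.03 CPM and, in replicate 1, 74.2 CPM (log2 1.89 ± 0.27, adjusted p = 0.00177). It was higher in DKO than in Cpt2 L-/- livers as well, by log2 0.84 (adjusted p = 0.0423).

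**Figure D2:**
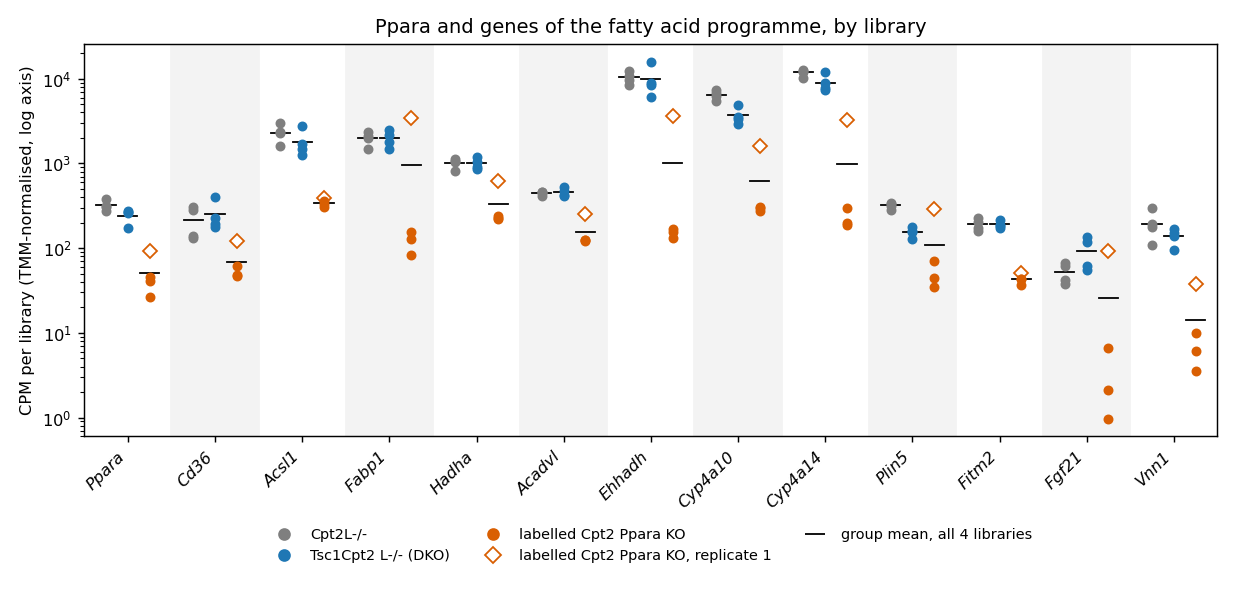
CPM (log axis) of Ppara and 12 genes of its programme in each of the 4 DKO, 4 Cpt2 L-/- and 4 libraries labelled Cpt2L-/- Ppara KO, with replicate 1 marked apart. Replicate 1 sits near the DKO libraries for Fabp1 (3431 CPM), Plin5 (291 CPM) and Fgf21 (92.8 CPM) and near its fellows for Acsl1.

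Lipid droplet and lipolysis genes rose in 9 of 18 tested (range 6 to 14) and fell in 0 (median 1.03), and in 14 without replicate 1. Fitm2, which buds droplets from the ER, was at 184, 174, 189 and 213 CPM in DKO, 43.6, 42.97 and 36.7 CPM in replicates 2 to 4 and 50.5 CPM in replicate 1. The difference was log2 2.14 ± 0.16 (SE, adjusted p = 6.43e-05) with replicate 1 and 2.22 ± 0.15 (SE, adjusted p = 1.82e-06) without it. Hsd17b11, a droplet-bound dehydrogenase, was at 781, 899.7, 772 and 1329 CPM in DKO against 76.4, 84.8 and 71.7 CPM and, in replicate 1, 228 CPM (log2 3.05 ± 0.41, adjusted p = 0.0014). Mgll, the monoacylglycerol lipase, differed by log2 1.92 ± 0.39 (SE, adjusted p = 0.00947), or by 2.53 (adjusted p = 3.97e-06) without replicate 1.

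Coat proteins of the droplet behaved differently in replicate 1. Plin2 was at 2040, 2739, 2821 and 3807 CPM in DKO and 931, 759.7 and 1239 CPM in replicates 2 to 4, with 2781 CPM in replicate 1. Plin5, which ties droplets to mitochondria, was at 127, 155, 175 and 159 CPM in DKO and 69.99, 44.9 and 34.4 CPM in replicates 2 to 4, with 291 CPM in replicate 1. Cidec, which fuses droplets, was at 403, 473, 532 and 557 CPM in DKO and 123, 175 and 147 CPM in replicates 2 to 4, with 513 CPM in replicate 1. Replicate 1 was within or above the DKO range in all 3. They were called without replicate 1, at log2 1.55 (adjusted p = 0.000979) for Plin2, 1.64 (adjusted p = 0.000296) for Plin5 and 1.73 (adjusted p = 4.45e-05) for Cidec, as against 1.01, 0.50 and 1.05 with all 8 libraries, where the edgeR fit of the 2 groups did not call them. With all 8 libraries Plin2 was called in the fit of 3 groups and with all 24 libraries in the fit (adjusted p = 0.0436 and 0.0375). Plin2 and Cidec were called by DESeq2 (0.0388 and 0.044) and by both limma fits on FPKM.

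Secreted and regulatory targets closed the programme. Fgf21, the fasting hormone, was at 54.7, 118, 61.7 and 136 CPM in DKO, 0.974, 2.09 and 6.71 CPM in replicates 2 to 4 and 92.8 CPM in replicate 1 (log2 1.88, adjusted p = 0.256, and 4.76, adjusted p = 0.00554 without replicate 1). Both limma fits on FPKM called Fgf21 with all 8 libraries (3.52 and 3.89). Vnn1, a pantetheinase, was at 139.5, 152, 94.5 and 168 CPM in DKO against 6.05, 3.59 and 9.93 CPM, with 37.9 CPM in replicate 1, and differed by log2 3.29 ± 0.63 (SE, adjusted p = 0.00716), or by 4.39 (adjusted p = 3.04e-05) without replicate 1. Pdk4, the kinase that blocks pyruvate dehydrogenase, was at 278, 507, 682 and 1375 CPM in DKO against 51.3, 17.1 and 28.4 CPM, with 190.5 CPM in replicate 1, and differed by log2 3.33 ± 0.76 (SE, adjusted p = 0.0158), or by 4.47 (adjusted p = 0.00509) without replicate 1, a call lost without replicate 2 (3.20) and with no filter (3.36). Vnn1 and Pdk4 did not overlap between groups, while Fgf21 did through replicate 1. Pdp2, the phosphatase that opposes Pdk4, was higher too, by log2 1.74 ± 0.23 (SE, adjusted p = 0.0014). Creb3l3 and Angptl4 missed the threshold at log2 0.58 (adjusted p = 0.0804) and 0.64 (adjusted p = 0.0687) and were called without replicate 1, at 0.73 (adjusted p = 0.00732) and 0.72 (adjusted p = 0.0225). With all 8 libraries both were called in the fit of 3 groups (adjusted p = 0.0268 and 0.0245), by DESeq2 and by both limma fits on FPKM. Creb3l3 was also called with all 24 libraries in the fit. Aqp3, the aquaglyceroporin, was at 1.14, 1.68, 1.17 and 7.005 CPM in DKO, under 3 counts in each of replicates 2 to 4 and at 0.724 CPM in replicate 1. It differed by log2 3.83 (adjusted p = 0.0243). Without replicate 1 DKO was at least 15.6-fold higher (edgeR adjusted p = 0.00378), or at least 7.57-fold higher without DKO replicate 4 as well. The call was lost without DKO replicate 4 (2.76), without replicate 2 or 3 of the other group (3.58 and 3.52) and with the replicate block (3.73).

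Genes of the mTorc1 pathway itself were called higher in 5 of 48 (10.4%, against 8.59% of all genes) and lower in 2 (4.17%, against 8.62%), and in 7 and 3 without replicate 1, so the pathway's counts were near the background. Mtor, the kinase, was at 204, 186, 233 and 228 CPM in DKO, 47.6, 54.6 and 65.6 CPM in replicates 2 to 4 and 56.8 CPM in replicate 1, and differed by log2 1.93 ± 0.17 (SE, adjusted p = 0.000192). Its level in Cpt2 L-/- was 199, 192, 234 and 282 CPM, from which DKO was not called different (log2 −0.07, adjusted p = 0.814) and the libraries labelled Cpt2L-/- Ppara KO were lower (log2 −2.02, adjusted p = 1.68e-05). Deptor, an inhibitor bound to mTOR, was at 247, 199, 256 and 233 CPM in DKO against 84.8, 101 and 104 CPM and, in replicate 1, 60.5 CPM (log2 difference 1.42 ± 0.21 SE, adjusted p = 0.00194). Rptor, the scaffold of mTorc1, differed by log2 0.68 (adjusted p = 0.106) and was called, among the settings run, only with all 24 libraries in the fit (0.67, adjusted p = 0.0292).

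Rragd, a GTPase that brings mTorc1 to the lysosome, was set apart by its level against the shared reference. It was at 69.2, 67.4, 71.9 and 56.04 CPM in DKO, 12.2, 13.9 and 10.7 CPM in replicates 2 to 4, 9.41 CPM in replicate 1 and 4.54, 4.63, 4.67 and 5.46 CPM in Cpt2 L-/-. Every DKO library was above every other library named, by log2 2.52 ± 0.17 (SE, adjusted p = 5.43e-05), or 2.43 ± 0.16 (SE, adjusted p = 1.56e-06) without replicate 1. DKO exceeded Cpt2 L-/- by log2 3.79 (adjusted p = 1.32e-08), and the libraries labelled Cpt2L-/- Ppara KO exceeded it by 1.26 (adjusted p = 0.000185).

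Lysosomal genes were higher in DKO in 23 of 80 tested and lower in 1, with a median of 0.40. Without replicate 1 the counts were 31 and 3 of 81, with a median of 0.33, and leaving out any 1 DKO library or replicate 2 of the other group left 11 to 14 higher. Against Cpt2 L-/-, DKO had 27 higher and 0 lower (5.1% and 2.7% of all genes), with a median of 0.45. The libraries labelled Cpt2L-/- Ppara KO had 15 higher and 10 lower (12.6% and 10.5% of all genes). Gpnmb, a lysosomal glycoprotein that also marks lipid-laden macrophages, was at 100.1, 134, 77.3 and 70.1 CPM in DKO against 17.9, 18.9 and 37.2 CPM, with 29.8 CPM in replicate 1. Its groups did not overlap and differed by log2 1.88 ± 0.29 (SE, adjusted p = 0.00234), and DKO was higher than Cpt2 L-/- by 2.24 (adjusted p = 0.000843).

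Of the 8 lysosomal genes with the E-box TCACGTGA in the searched stretch, 4 were called higher and 0 lower: Ctsa, Cln3, Atp6v1a and Igf2r. The share called higher was 28.8% in the whole lysosomal list and 8.59% over all genes. Atp6v1a, a subunit of the proton pump that acidifies the lysosome, was at 119, 95.8, 101 and 103 CPM in DKO and at 71.5, 72.1 and 71.4 CPM in replicates 2 to 4, with 73.3 CPM in replicate 1. Igf2r, which carries hydrolases to the lysosome, was at 77.8, 79.9, 82.7 and 98.4 CPM in DKO against 30.1, 43.3 and 65.3 CPM, with 24.04 CPM in replicate 1. The size of the gaps differed, at log2 0.55 ± 0.14 (SE, adjusted p = 0.0216) for Atp6v1a and 1.06 ± 0.28 (SE, adjusted p = 0.03) for Igf2r. Ctsa and Cln3, both lysosomal proteins, differed by log2 0.55 (adjusted p = 0.0311) and 0.65 (adjusted p = 0.0341). All 4 calls were lost without DKO replicate 1, 3 or 4 or without replicate 2 of the other group, at 0.47 to 0.55 for Atp6v1a and 0.94 to 1.09 for Igf2r. With the replicate block those of Atp6v1a, Cln3 and Ctsa were lost (adjusted p = 0.0678, 0.0604 and 0.0924), and with no filter that of Ctsa (0.0684). Vps18, a subunit of the complexes that fuse vesicles with lysosomes, differed by log2 1.12 ± 0.18 (SE, adjusted p = 0.00254). Autophagy genes were called at about the share of all genes, with 3 of 42 higher (7.14%, range 1 to 6) and 4 lower (9.52%, range 3 to 7).

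Targets of Atf4, a transcription factor that mTorc1 and amino acid shortage both raise, showed no single direction. Of 38 tested, 6 were higher (15.8%, against 8.59% of all genes, range 1 to 10). Another 5 were lower (13.2%, against 8.62%, range 3 to 7), and the median of the list was −0.10. Atf4 itself was at 104, 155, 146 and 172 CPM in DKO, 154, 127 and 148 CPM in replicates 2 to 4 and 238 CPM in replicate 1, and did not pass the test (log2 difference −0.20, adjusted p = 0.587, and 0.02, adjusted p = 0.959 without replicate 1). Asns, asparagine synthetase, was lower in DKO, at 25.6, 20.4, 34.9 and 19.7 CPM against 49.4, 45.9 and 47.8 CPM and, in replicate 1, 38.1 CPM (log2 difference −0.84 ± 0.20 SE, adjusted p = 0.0189), a call lost without DKO replicate 1, 2 or 4 or replicate 2 of the other group (−0.86 to −0.74) and with all 24 libraries in the fit (−0.85, adjusted p = 0.277). Both groups stood above Cpt2 L-/-, which was at 6.94, 7.61, 4.67 and 10.4 CPM, by log2 1.78 (adjusted p = 0.000599) for DKO and 2.61 (adjusted p = 2.92e-05) for the other group. Psat1, an enzyme of serine synthesis, was at 42.7, 51.7, 51.6 and 34.1 CPM in DKO against 13.6, 2.75 and 12.3 CPM, but replicate 1 held 43.8 CPM, and edgeR called it without that library (log2 difference 2.24, adjusted p = 0.0154 as against 1.33, adjusted p = 0.141). Psat1 was also called with it by limma on log2(FPKM + 1) (1.68, adjusted p = 0.0443). Trib3, a pseudokinase target of Atf4, was at 63.2, 64.4, 63.5 and 75.4 CPM in DKO, 83.3, 68.1 and 126 CPM in replicates 2 to 4 and 95.3 CPM in replicate 1 (log2 difference −0.48, adjusted p = 0.121). Aminoacyl-tRNA synthetases rose in 6 of 40 (15%, against 8.59% of all genes, range 0 to 7) and fell in 0. Among the 6 was Tars, the threonyl enzyme, at log2 0.67 (adjusted p = 0.0421). Its call was lost without any 1 DKO library or without replicate 2 or 3 of the other group (0.51 to 0.70). It was lost too with the replicate block (0.70, adjusted p = 0.0765).

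Lipogenic genes rose in 5 of 30 (16.7%, against 8.59% of all genes, range 2 to 10) and fell in 1 (3.33%, against 8.62%), with a median of 0.56. Without replicate 1, 10 rose and 1 fell. Acacb, the acetyl-CoA carboxylase at mitochondria, was at 299.7, 268, 357 and 357 CPM in DKO, 91, 134 and 111 CPM in replicates 2 to 4 and 33.5 CPM in replicate 1, and differed by log2 1.80 ± 0.36 (SE, adjusted p = 0.00846). Fasn, fatty acid synthase, was at 53.7, 45.5, 39.4 and 40.6 CPM in DKO, 39.3, 51.6 and 72.5 CPM in replicates 2 to 4 and 13.4 CPM in replicate 1 (log2 difference 0.02, adjusted p = 0.98, and −0.28, adjusted p = 0.331 without replicate 1). Srebf1, the lipogenic transcription factor downstream of mTorc1, was at 31.4, 35.9, 24.6 and 24.1 CPM against 15.7, 20.1 and 24.9 CPM, with 10.3 CPM in replicate 1 (log2 difference 0.71, adjusted p = 0.0871), and was called without replicate 4 of the other group (0.93, adjusted p = 0.0313) and in the fit of 3 groups (0.72, adjusted p = 0.0456). Cholesterol synthesis genes were higher in 1 of 36 (2.78%, against 8.59% of all genes, range 1 to 2). They were lower in 4 (11.1%, range 0 to 8), near the 8.62% of all genes. Hsd17b7 was the higher one (log2 difference 1.52 ± 0.22 SE, adjusted p = 0.00174).

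**Figure D3:**
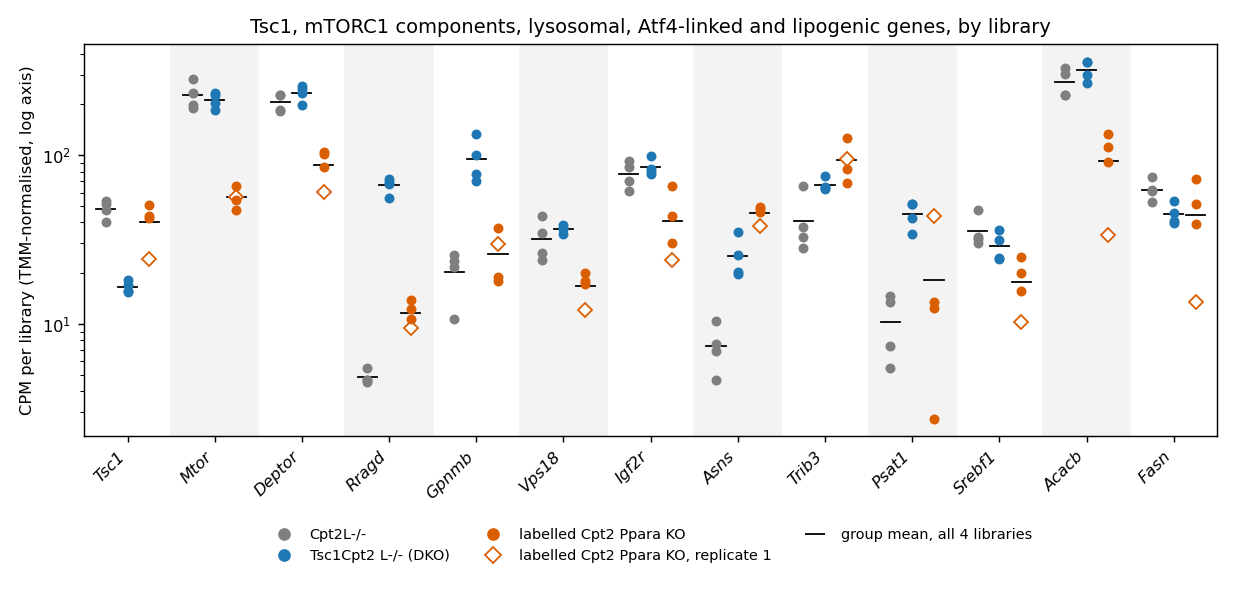
CPM (log axis) of Tsc1, 3 genes of mTOR signalling, 3 lysosomal genes, Atf4 targets and lipogenic genes in each of the DKO, Cpt2 L-/- and Cpt2L-/- Ppara KO labelled libraries. All 4 DKO libraries of Rragd lie between 56.0 and 71.9 CPM, above the 4.54 to 13.9 CPM of the other 8 libraries, whereas Fasn overlaps.

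Amino acid catabolism and the urea cycle, the liver's route for disposing of nitrogen in fasting, were lower in DKO. Of 59 genes tested, 28 fell and 2 rose, with a median of −0.88, and without replicate 1, 38 fell and 2 rose with a median of −1.05. Without DKO replicate 2 or 4, or replicate 2 or 3 of the other group, 16 to 18 fell. Replicate 1 was the lowest of its 4 libraries for 52 of the 59 genes (88.1%, against 37.2% of all genes). Sds, serine dehydratase, was at 7.47, 3.05, 10.6 and 5.83 CPM in DKO, 153, 259 and 89.2 CPM in replicates 2 to 4 and 19.3 CPM in replicate 1. Although replicate 1 was closest to DKO, the groups did not overlap, and the difference was log2 −4.27 ± 0.70 (SE, adjusted p = 0.00339).

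Cth, cystathionine γ-lyase, was at 66.99, 73.1, 73.1 and 51.01 CPM in DKO, 784, 1579 and 522 CPM in replicates 2 to 4 and 204 CPM in replicate 1, a difference of log2 −3.54 ± 0.53 (SE, adjusted p = 0.00212), or of −2.93 without replicate 3. Cbs, the step before it, was at 92.03, 90.2, 96.7 and 101 CPM in DKO against 340.2, 390.4 and 402 CPM, with 138 CPM in replicate 1, a difference of log2 −1.74 ± 0.30 (SE, adjusted p = 0.00456). DKO was below the other group in every library for both. Gls2, the liver glutaminase, fell by log2 3.09 (adjusted p = 0.00219), Oat, ornithine aminotransferase, by 2.51 (adjusted p = 0.00138), and Got1, the cytosolic aspartate aminotransferase, by 2.95 (adjusted p = 0.00598). Hal, histidine ammonia-lyase, was at 84.3, 35.5, 81.7 and 71.6 CPM in DKO and 601, 734 and 331 CPM in replicates 2 to 4, but its value in replicate 1 was 89.4 CPM, next to DKO replicate 1 (log2 difference −2.68 ± 0.56 SE, adjusted p = 0.01). Against Cpt2 L-/-, Sds (log2 difference −2.59, adjusted p = 0.0269) and Gls2 (log2 difference −1.50, adjusted p = 0.0301) were lower in DKO, while Cth (log2 difference 2.72, adjusted p = 0.00158) was higher in the libraries labelled Cpt2L-/- Ppara KO.

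Acute-phase genes, which the liver secretes in inflammation, fell in 18 of 32 tested and rose in 0, with a median of −1.17 (19 and 0 with a median of −1.23 without replicate 1). Without DKO replicate 1, 2 or 4, or replicate 2 of the other group, 7 to 10 fell. Lcn2, the iron-scavenging lipocalin, was at 4.91, 1.79, 2.22 and 1.44 CPM in DKO, 46.5, 18.5 and 19.4 CPM in replicates 2 to 4 and 12.02 CPM in replicate 1. Fga, the fibrinogen α chain, was at 673, 254, 308 and 173 CPM in DKO against 2578, 1168 and 1334 CPM and, in replicate 1, 698 CPM. The differences were log2 −3.21 ± 0.49 (SE, adjusted p = 0.00245) for Lcn2 and −2.03 ± 0.48 (SE, adjusted p = 0.0185) for Fga, and DKO replicate 1 was the highest of its group for both. Hpx, the haem-binding hemopexin, fell by log2 1.11 (adjusted p = 0.0157). The call of Fga was lost without DKO replicate 2, 3 or 4 or replicate 2 of the other group (−1.99 to −1.60), and that of Hpx without DKO replicate 1 or 4 (−1.10 and −1.02). Saa1, serum amyloid A, varied widely, at 11.01, 15.5, 41.3 and 13.96 CPM in DKO, 562, 69.5 and 34.3 CPM in replicates 2 to 4 and 148 CPM in replicate 1. Its call (log2 difference −3.30, adjusted p = 0.021) was lost without replicate 1 (log2 difference −3.43, adjusted p = 0.0804) and without 4 of the other 7 single libraries. It was lost too with all 24 libraries in the fit, in the fit of 3 groups, with no filter and with the block (adjusted p = 0.107, 0.0677, 0.113 and 0.0506). The Saa1 log2 difference was −3.92 without DKO replicate 3 and −2.03 without replicate 2 of the other group. Of the 14 acute-phase genes with TTGCNNAA in the searched stretch, 9 were called lower. The share called lower was 56.2% in the whole acute-phase list and 8.62% over all genes.

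ER chaperones and folding factors fell in 16 of 31 tested and rose in 0, with a median of −0.70 (21 and 0 with a median of −0.73 without replicate 1). Leaving out any 1 DKO library or replicate 2 of the other group left 5 to 10 called. Hspa5, the main ER chaperone, was at 657, 654, 612 and 553 CPM in DKO, 2646, 1020 and 1635 CPM in replicates 2 to 4, 1089 CPM in replicate 1 and 376 ± 76.98 CPM (SD, n = 4) in Cpt2 L-/-. Hsp90b1, the ER member of the Hsp90 family, was at 302 ± 47.7 CPM (SD, n = 4) in DKO against 1911, 589.9 and 898 CPM and, in replicate 1, 618 CPM. No library of the 2 groups overlapped, replicate 2 of the Cpt2L-/- Ppara KO group was the highest for each gene, and the differences were log2 −1.36 ± 0.31 (SE, adjusted p = 0.0145) for Hspa5 and −1.72 ± 0.37 (SE, adjusted p = 0.0114) for Hsp90b1. The Hspa5 call was lost without DKO replicate 4 (−1.31).

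The other members with the ER stress response element shown above were Creld2, Calr and Derl3. Together with Hspa5 and Hsp90b1 they were the 5 called lower of the 9 that hold it. The share called lower was 51.6% in the whole ER list and 8.62% over all genes. Creld2 fell by log2 1.56 (adjusted p = 0.00588) and Calr, the lectin chaperone calreticulin, by 1.30 (adjusted p = 0.0163), a call lost without DKO replicate 3 or 4 (−1.19 and −1.27). Derl3, a channel protein that returns misfolded protein to the cytosol, was at 44.3, 9.92 and 18.3 CPM in replicates 2 to 4 and 11.01 CPM in replicate 1. It was at 3 counts or fewer in every DKO library, so DKO was at least 122-fold lower (edgeR adjusted p = 0.000249), or at least 76.3-fold lower without replicate 2. Sdf2l1, an Hspa5 cofactor, was at 16.1, 16.02, 9.78 and 11.1 CPM in DKO, 193, 51.3 and 62.9 CPM in replicates 2 to 4 and 56.7 CPM in replicate 1 (log2 difference −2.77 ± 0.43 SE, adjusted p = 0.00259, and −2.10 without replicate 2). Against Cpt2 L-/-, 4 of 31 ER genes were higher and 0 lower in DKO (median 0.37), with 5.1% and 2.7% of all genes called. In the libraries labelled Cpt2L-/- Ppara KO, 22 were higher and 0 lower (median 1.02), with 12.6% and 10.5% of all genes called. Hspa5 was at log2 0.73 (adjusted p = 0.113) in DKO and 2.08 (adjusted p = 0.000334) in the other group.

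Cytochromes P450 of drug and steroid metabolism stood lower. Of 37 Cyp1, Cyp2 and Cyp3 genes, 14 fell and 1 rose with a median of −0.44 (17 and 1 without replicate 1). Cyp2a5, the coumarin hydroxylase, was at 153, 386, 317 and 243 CPM in DKO, 2446, 3292 and 3430 CPM in replicates 2 to 4 and 1122 CPM in replicate 1. Cyp2c29 was at 57, 100.1, 75.4 and 72.8 CPM in DKO against 749.8, 794 and 2027 CPM and, in replicate 1, 169 CPM. Neither overlapped, and they differed by log2 −3.23 ± 0.41 (SE, adjusted p = 0.00117) and −3.62 ± 0.61 (SE, adjusted p = 0.00396), the latter by −2.89 without replicate 4. Cyp2c39 was the 1 that rose, at 105, 78.1, 59.1 and 90.2 CPM in DKO against 6.75, 7.47 and 3.87 CPM and 4.63 CPM (log2 difference 3.88 ± 0.27 SE, adjusted p = 5.43e-05). Cyp17a1, the 17α-hydroxylase of steroid synthesis, was at 0.571, 0.263, 2.74 and 2.57 CPM in DKO against 169.8, 252 and 155 CPM, with 25.9 CPM in replicate 1 (log2 difference −6.62 ± 0.85 SE, adjusted p = 0.00117). Cyp2c and Cyp2a genes are families of near copies, so counts may have been shared between members.

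Some conjugating enzymes and transporters were lower as well. Sult1a1, a phenol sulphotransferase, was at 47.4, 23.4, 31.8 and 18.3 CPM in DKO, 449, 620.2 and 632 CPM in replicates 2 to 4 and 168 CPM in replicate 1 (log2 difference −3.95 ± 0.46 SE, adjusted p = 0.000709). Gstm3, a glutathione transferase, was at 14.4, 27.4, 13.04 and 10.6 CPM in DKO against 182, 111 and 545 CPM, with 74.2 CPM in replicate 1 (log2 difference −3.81 ± 0.62 SE, adjusted p = 0.00339, and −2.89 without replicate 4). Slco1a4, an organic anion and bile acid uptake transporter, was at 9.36, 10.7, 10.8 and 27.2 CPM in DKO against 408, 381 and 311 CPM, with 125 CPM in replicate 1 (log2 difference −4.39 ± 0.48 SE, adjusted p = 0.000542). The families as a whole were mixed, against 8.62% lower and 8.59% higher of all genes. Glutathione transferases fell in 7 of 39 (17.9%, range 6 to 10) and rose in 2 (5.13%, range 0 to 7). Glucuronosyl- and sulphotransferases fell in 10 of 21 (47.6%, range 7 to 11) and rose in 3 (14.3%, range 3 to 4). Among those 3 were Ugt3a1 (log2 difference 2.19, adjusted p = 0.0002) and Sult5a1 (log2 difference 2.60, adjusted p = 0.00131).

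**Figure D4:**
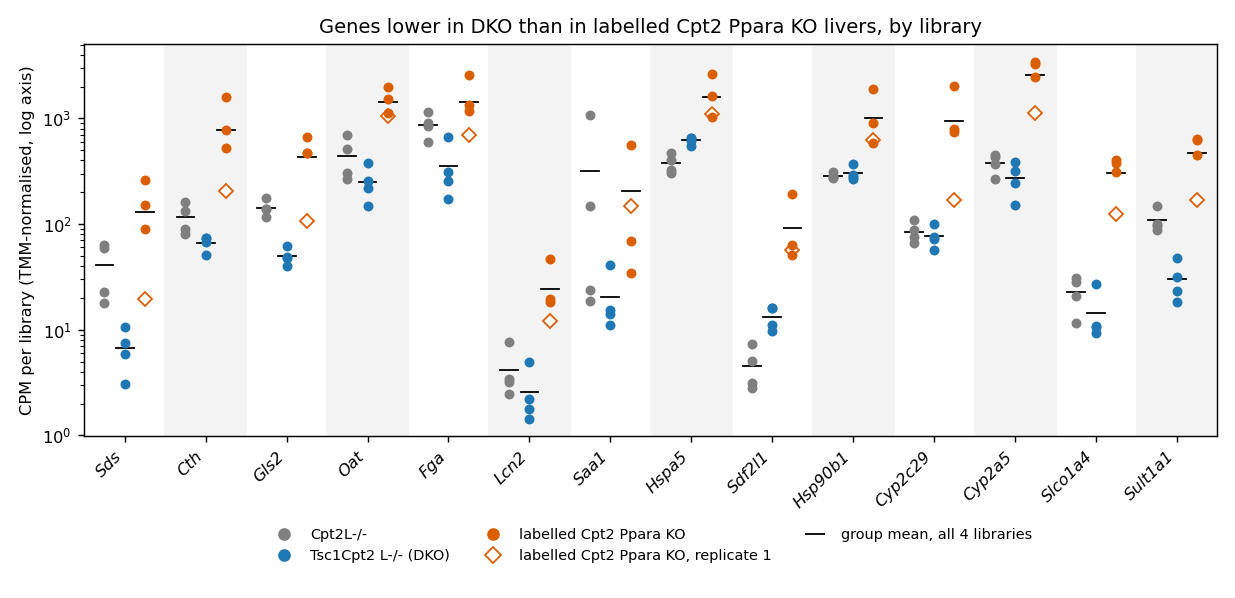
CPM (log axis) of genes of amino acid catabolism, the acute phase, ER folding and detoxification in each of the DKO, Cpt2 L-/- and Cpt2L-/- Ppara KO labelled libraries. DKO libraries lie below all 4 libraries of the other group for Sds, Cth, Hspa5, Cyp2a5 and Slco1a4, and replicate 1 lies closest to them for Sds (19.3 CPM).

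Fasting signals that the liver secretes fell in 8 of 23 (34.8%, against 8.62% of all genes, range 5 to 9) and rose in 2 (8.7%, against 8.59%, range 1 to 4). Leap2, the liver peptide that blocks the ghrelin receptor, was at 0.628, 1.47, 1.24 and 0.160 CPM in DKO, 11.3, 13.6 and 36.3 CPM in replicates 2 to 4 and 39.8 CPM in replicate 1 (log2 difference −4.85 ± 0.60 SE, adjusted p = 0.000995). Fst, the activin antagonist follistatin, was at 2.28, 1.21, 2.67 and 1.34 CPM in DKO against 25.1, 9.62 and 5.78 CPM, with 12.3 CPM in replicate 1 (log2 difference −2.80 ± 0.46 SE, adjusted p = 0.00321). Every DKO library was below every other for both. Genes of glycolysis and the pentose phosphate pathway rose in 6 of 35 (17.1%, range 1 to 10) and fell in 2 (5.71%, range 1 to 4). Their median was 0.30, with counts of 10 and 4 without replicate 1. Genes of gluconeogenesis and pyruvate entry rose in 5 of 28 (17.9%, range 3 to 7) and fell in 4 (14.3%, range 2 to 7). Their median was −0.09, with counts of 7 and 7 without replicate 1.

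Bile acid synthesis and transport fell in 8 of 24 and rose in 1 (10 and 1 without replicate 1). Akr1d1, which reduces the steroid ring of bile acid precursors, was at 8.62, 3.47, 3.78 and 2.94 CPM in DKO, 52.2, 72.8 and 38.04 CPM in replicates 2 to 4 and 15.8 CPM in replicate 1 (log2 difference −3.24 ± 0.49 SE, adjusted p = 0.00218). Nr0b2, the repressor SHP, was at 1.83, 0.0525, 0.522 and 0.160 CPM in DKO against 12.04, 31.02 and 26.8 CPM, but its value in replicate 1 was 1.30 CPM, within the DKO range (log2 difference −4.81 ± 0.998 SE, adjusted p = 0.00997, and −6.24 without DKO replicate 1), and the call was lost with no filter (−4.79, adjusted p = 0.0703).

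Zonal genes, which hepatocytes express by their place in the lobule, differed between the ends. Of 20 periportal genes 9 fell (45%, against 8.62% of all genes, range 5 to 15) and 0 rose, with a median of −0.97. Of 25 pericentral genes 7 fell (28%) and 1 rose, with a median of −0.16 and 10 members above 0. Sums did not overlap for periportal genes (35210 to 43190 CPM in DKO, 50280 to 69440 in the other group). Pericentral sums did overlap (9810 to 11430 against 10190 to 15500 CPM). Without replicate 1 the periportal counts were 15 lower and 2 higher, and the pericentral counts were 10 and 2. Genes under growth hormone moved both ways, with 5 of 32 higher (15.6%, against 8.59% of all genes, range 4 to 5) and 7 lower (21.9%, against 8.62%, range 3 to 7). Igfals, the carrier subunit of circulating Igf1, was higher in DKO (log2 difference 1.13 ± 0.22 SE, adjusted p = 0.00723), and Hsd3b5, a male-biased hydroxysteroid dehydrogenase, was lower (log2 difference −4.17 ± 0.75 SE, adjusted p = 0.00494), at 0.342, 0.105, 0.782 and 0 CPM against 10.99, 2.87 and 3.54 CPM and, in replicate 1, 4.42 CPM. The Hsd3b5 log2 difference was −5.16 without DKO replicate 3 and −3.58 without replicate 2 of the other group.

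Genes outside the lists above also stood among the 10 largest rises or falls. Gldn, the cell adhesion protein gliomedin, was at 3 counts or fewer in every DKO library against 15.8, 22.6 and 11.8 CPM in replicates 2 to 4 and 2.03 CPM in replicate 1, at least 76.3-fold lower (edgeR adjusted p = 0.00254). Ly6d, a surface protein of the Ly6 family, was at 85.2, 96.05, 71.8 and 62.4 CPM in DKO, 0.278, 0.538 and 0.326 CPM in replicates 2 to 4, 1.09 CPM in replicate 1 and 18.8, 23.7, 16.1 and 34.1 CPM in Cpt2 L-/-. Its difference was log2 7.18 ± 0.36 (SE, adjusted p = 1.22e-05), and all 4 DKO libraries also exceeded Cpt2 L-/- (log2 difference 1.78, adjusted p = 0.00136). Gdpd3, a phosphodiesterase of lysophospholipids, was at 7.76, 12.6, 7.76 and 5.67 CPM in DKO and at 0, 0.0598 and 0.373 CPM in replicates 2 to 4, with 0.0724 CPM in replicate 1 (log2 difference 5.79 ± 0.57 SE, adjusted p = 0.000316). Replicates 1 to 3 held 3 counts or fewer of it, so without replicate 4 DKO was at least 41.8-fold higher. Scn4b, a sodium channel subunit, was at 13.98, 8.98, 9.78 and 20.6 CPM in DKO and at 0.507 CPM in replicate 1, and at 3 counts or fewer in replicates 2 to 4, at least 75.9-fold higher without replicate 1.

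Among the 10 largest falls were a pair of secreted serpins. Serpina12, the adipokine vaspin, was at 0.399, 0.735, 0.782 and 0.214 CPM in DKO, 35.5, 16.02 and 26.6 CPM in replicates 2 to 4 and 23.02 CPM in replicate 1 (log2 difference −5.56 ± 0.38 SE, adjusted p = 5.43e-05). Serpina7, which carries thyroxine, was at 0.685, 1.47, 0.130 and 0.909 CPM in DKO against 24.98, 22.6 and 39.1 CPM, with 17.7 CPM in replicate 1 (log2 difference −4.98 ± 0.47 SE, adjusted p = 0.000271). Alb, albumin, was lower as well, at 11740, 13180, 14990 and 10950 CPM in DKO against 32400, 24650 and 22920 CPM, with 22560 CPM in replicate 1 (log2 difference −1.002 ± 0.23 SE, adjusted p = 0.0168). The Alb call was lost without DKO replicate 1, 2 or 4 (−1.01 to −0.94) and with the replicate block (−0.997, adjusted p = 0.0509).

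Genes of the cell cycle were called higher in 4 of 31 (12.9%, range 4 to 8) and lower in 3 (9.68%, range 1 to 5), near the 8.59% and 8.62% of all genes. Targets of p53 were higher in 5 of 27 and lower in 5 (18.5% each, ranges 4 to 6 and 3 to 6). Mcm2, a subunit of the replicative helicase, was at 17.9, 14.7, 18.2 and 10.5 CPM in DKO against 3.48, 2.87 and 5.64 CPM, with 6.95 CPM in replicate 1 (log2 difference 1.70 ± 0.30 SE, adjusted p = 0.00453). Zmat3, an RNA-binding p53 target, was higher (log2 difference 1.63 ± 0.15 SE, adjusted p = 0.000249), and Trp53inp1, another p53 target, was lower (log2 difference −2.20 ± 0.35 SE, adjusted p = 0.00275).

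Markers of other liver cells were read beside these results. Of 9 resident macrophage markers 6 fell and 1 rose, and their summed level was 197 to 336 CPM in DKO and 387 to 508 CPM in the other group. Clec4f, a Kupffer cell receptor, was at 58.3, 38.9, 45.6 and 40.5 CPM in DKO, 120.1, 144 and 101 CPM in replicates 2 to 4 and 105 CPM in replicate 1 (log2 difference −1.35 ± 0.19 SE, adjusted p = 0.00154), and Vsig4 (log2 difference −1.45, adjusted p = 0.00209) and Lyz2 (log2 difference −1.33, adjusted p = 0.0105) fell too. Cd68 was the 1 that rose (log2 difference 1.51, adjusted p = 0.0156). Its call was lost without DKO replicate 2 (1.34) or replicate 2 of the other group (1.47) and with the replicate block (1.41, adjusted p = 0.0503). Of 5 markers of lipid-laden macrophages 2 rose and 1 fell, with sums of 123 to 199 CPM against 69.0 to 90.0 CPM, and Gpnmb was among those that rose. Of the 8 hepatocyte markers 3 fell (range 1 to 5) and 0 rose, with sums of 31330 to 39520 CPM in DKO and 45740 to 65640 CPM in the other group. Stellate markers (172 to 210 against 178 to 246 CPM) and endothelial markers (227 to 365 against 186 to 346 CPM) overlapped in sum. Markers of T and NK cells were near 0, summing to 0.945 to 2.09 CPM in DKO and 2.0 to 4.56 CPM in the other group. B cell (1.34 to 3.42 against 2.85 to 6.28 CPM), neutrophil (0.315 to 4.17 against 2.14 to 5.43 CPM), erythroid (120 to 834.8 against 389 to 1066 CPM), bile duct (20.5 to 27.1 against 13.4 to 21.0 CPM) and muscle markers (0.749 to 1.30 against 0.278 to 18.2 CPM) overlapped in sum. The erythroid overlap came through DKO replicate 3, without which 4 of the 5 erythroid markers tested were called lower, with a median log2 difference of −2.35 against −1.15. Adipocyte markers did not overlap in sum, at 33.6 to 66.3 CPM in DKO and 8.02 to 30.3 CPM in the other group. The 1 tested of those 6 was Fabp4, a fatty acid-binding protein, at log2 1.22 (adjusted p = 0.0621), or 1.54 (adjusted p = 0.0398) without replicate 1, while Lep was at 0 and Adipoq and Retn at 0.0134 CPM or less on average in both groups. The part of these markers in the lipid droplet, fatty acid, acute-phase, lysosomal and other differences was not tested.

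Gene length also moved with replicate 1. Cytosolic ribosomal protein genes, which are short, fell in 9 of 81 (11.1%, against 8.62% of all genes) and rose in 2 with a median of −0.84, and in 14 and 2 with a median of −0.36 without replicate 1, which was the highest of its group in all 81. The lower count ran from 2 without DKO replicate 3 to 39 without replicate 4 of the other group. Rps27 was at 119.9, 166, 115 and 126 CPM in DKO, 299, 231 and 306 CPM in replicates 2 to 4 and 610.2 CPM in replicate 1 (log2 difference −1.45 ± 0.29 SE, adjusted p = 0.00891). Over all genes tested, the shortest of 5 equal classes had a median log2 difference of −0.26, or −0.09 without replicate 1, and the longest class had 0.09, or −0.0026 without it. The part of length in any single difference was not tested. Subunits of oxidative phosphorylation were called in 3 of 76, all lower (3.95%, against 8.62% of all genes), with 0 without DKO replicate 1 and 22 without replicate 4 of the other group.

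**Figure D5:**
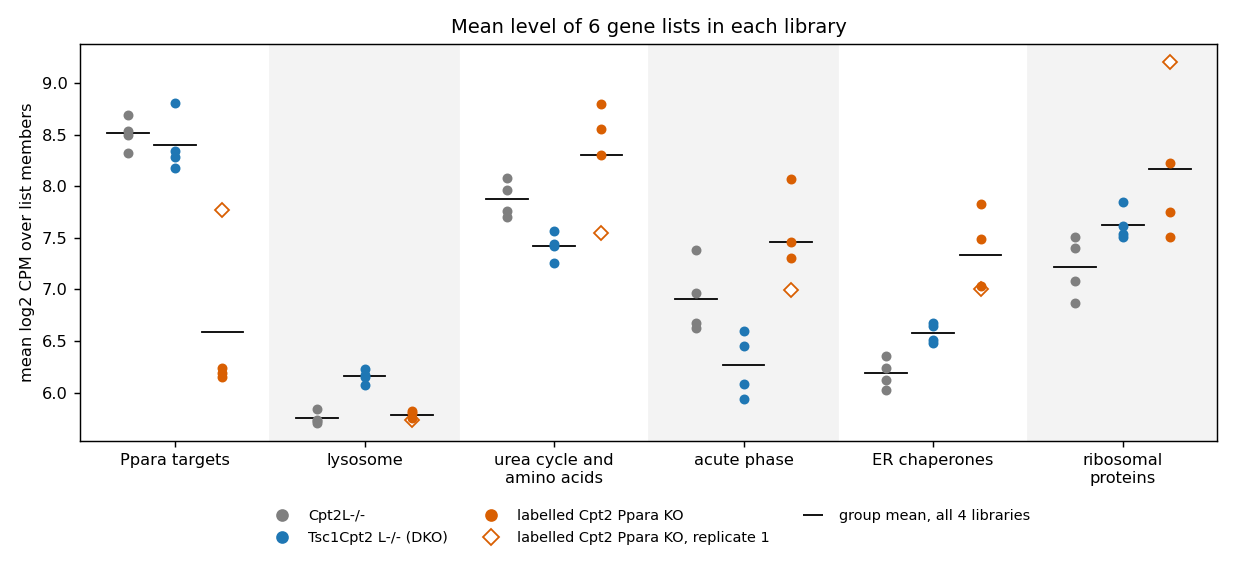
Mean log2 CPM over the members of 6 gene lists in each DKO, Cpt2 L-/- and Cpt2L-/- Ppara KO labelled library, with replicate 1 marked apart. Replicate 1 lies between DKO and its fellows for the Pparα targets, within the DKO range for amino acid genes (7.55), and above all other libraries shown for ribosomal proteins (9.20).

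Some differences followed a division of the whole series. For 93 of the 12917 genes tested (0.72%, or 2.91% of the 3201 genes without overlap between the 2 groups compared), all 12 wild type, Tsc1 L-/- and DKO libraries lay on 1 side of all 12 Cpt2 L-/-, Ppara KO and Cpt2L-/- Ppara KO libraries, with 51 above and 42 below. Of these, 71 were called, against 17.2% of all genes. The choice required no overlap between the 2 groups compared, so a high share of calls was built in. Hist1h2al, a histone gene, was at 10.96, 16.2, 24.6 and 27.7 CPM in DKO and at 3 counts or fewer in all 4 libraries of the other group, at least 107-fold higher. Cd1d2, a lipid-presenting molecule, was at 15.2, 11.2, 28.7 and 29.1 CPM in DKO and 0.0696, 0.239 and 0.140 CPM in replicates 2 to 4, with 0.362 CPM in replicate 1. Rps3a3, a ribosomal protein gene copy, was at 50.3, 69.01, 88.5 and 96.1 CPM in DKO against 1.32, 1.08 and 0.326 CPM, with 3.48 CPM in replicate 1. Replicate 1 lay on the side of its group in these genes because they were chosen that way, so its place here says nothing about its label. Colony or cross and genotype cannot be told apart for these genes, nor for any other difference between the 2 groups compared. In these genes the Cpt2 L-/- libraries lay with the other group, so the comparison of DKO with Cpt2 L-/- carries the same limit.

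Nnt, the mitochondrial transhydrogenase, of which some C57BL/6 substrains carry a known loss, was at 204, 209, 202 and 216 CPM in DKO, 41.6, 61.4 and 69.5 CPM in replicates 2 to 4, 67.1 CPM in replicate 1 and 118, 138, 150.2 and 137 CPM in Cpt2 L-/- (log2 difference 1.80 ± 0.19 SE, adjusted p = 0.000396). The regions around the 3 deleted genes were read the same way. Within 10 Mb of Tsc1, Cpt2 and Ppara, 14.7%, 19.8% and 18.8% of the genes tested were called, against 17.2% of all genes.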

How the data were processed

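Liver RNA was sequenced as single 75-base reads from a TruSeq stranded mRNA kit. The deposited table held raw counts for 35275 genes in 24 libraries, and a second deposited table held FPKM that the authors had derived from those counts and gene length. The submitters' processing notes list Bowtie 0.12.2, TopHat, STAR 2.5, STAR-Fusion, HTSeq 0.6.1, DESeq2 and edgeR with builds mm8 and mm9, without roles, whereas the gene coordinates deposited with the counts are of GRCm38. The strand setting of the counting was not given in the sources used here.

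Counts of the 2 groups were filtered with filterByExpr (minimum count 10, minimum total 15), scaled by TMM and tested with the edgeR 4.0.16 quasi-likelihood test in R 4.3.3. Comparisons with Cpt2 L-/- came from a fit of the 3 groups. CPM were scaled over all 24 libraries, and 3 counts were taken as the floor for a bound on a fold change. Alternatives were RLE size factors, no filter, DESeq2 1.42.0, all 24 libraries in the fit, a fit of 3 groups (or of the 2 compared), a replicate block, limma 3.58.1 on log2(FPKM + 1) and log2(FPKM + 0.1), a minimum log2 change of 1, and leaving out each library. The fits were tested on simulated counts with known changes. The main edgeR fit called 1 of 49 genes changed by log2 0.5, 15 of 49 changed by 1, 44 of 49 changed by 2 and 50 of 50 changed by 4. It called 5 of 12774 unchanged genes. A difference near log2 1 or smaller that missed the threshold is therefore not shown to be absent. Tables and figures were made with Python 3.11.15, pandas 2.3.3 and matplotlib 3.10.9.

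Named genes were the deleted genes, the 10 largest called changes each way without overlap of the groups and with at least 1 CPM in the higher group, up to 3 called members each way of each gene list, and a set of known pathway genes. Hspa5, Creld2, Calr, Ctsa, Igf2r, Atp6v1a, Cln3, Fga and Hpx were added for their promoter letters, and Nnt after its values were seen. Cd1d2 and Rps3a3 were among the 10 largest rises. Some genes that these rules named are not reported here. The members, the 51 gene lists and the rules were chosen with earlier results of these data known. Same-numbered libraries of the 2 groups did not deviate together (correlations −0.134, −0.125, 0.0427 and 0.0558), so replicate numbers were not taken as pairs.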

Additional observations from a re-analysis of the deposited data

Results flagged for a closer look

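Within each group of 4, a library was singled out where its gap to the nearest other library took up more of the group's range than Dixon's 95% critical value for 4 samples, and chance does so in about 1 of 20 groups. Of 212 sets of 4 values (106 genes in both groups), 33 met this. Replicate 1 of the libraries labelled Cpt2L-/- Ppara KO was the high value in 19 of them, mostly genes of fatty acid use, with shares of the range of 0.833 for Acadm, 0.966 for Acadvl, 0.949 for Acot1, 0.911 for Acot3, 0.904 for Aqp3, 0.867 for Cidec, 0.922 for Cpt2, 0.979 for Cyp4a10, 0.901 for Cyp4a12a, 0.964 for Cyp4a14, 0.989 for Ehhadh, 0.978 for Fabp1, 0.908 for Fabp3, 0.938 for Fgf21, 0.955 for Hadha, 0.917 for Hsd17b11, 0.911 for Mgll, 0.861 for Plin5 and 0.889 for Slc16a1. Replicate 2 of the libraries labelled Cpt2L-/- Ppara KO was the high value for Hpx (0.959, 7666 CPM) and Sdf2l1 (0.918, 193 CPM). Replicate 4 of the libraries labelled Cpt2L-/- Ppara KO was the low value for Vsig4 (0.886, 21.7 CPM). DKO replicate 1 was the high value for Akr1d1 (0.852, 8.62 CPM). DKO replicate 2 was the high value for Ctsa (0.902, 257 CPM) and Sult5a1 (0.835, 74.7 CPM) and the low value for Phyh (0.838, 548 CPM) and Ppara (0.855, 171 CPM). DKO replicate 3 was the high value for Saa1 (0.852, 41.3 CPM). DKO replicate 4 was the high value for Acadm (0.874, 722 CPM), Aqp3 (0.908, 7 CPM), Cyp4a31 (0.921, 197 CPM), Slco1a4 (0.918, 27.2 CPM) and Trib3 (0.896, 75.4 CPM).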

How the results depend on the processing

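Leaving out 1 library at a time gave 634 to 1726 genes higher and 568 to 1611 lower in DKO than in the libraries labelled Cpt2L-/- Ppara KO, with the most without replicate 1 of that group and the fewest without DKO replicate 4. The same exercise gave 19 to 50 Pparα targets higher, 11 to 31 lysosomal genes higher, and 5 to 21 ER, 16 to 38 amino acid and 7 to 19 acute-phase genes lower. Against Cpt2 L-/-, it gave 290 to 466 higher and 138 to 299 lower in DKO, and 782 to 2119 higher and 851 to 1806 lower in the libraries labelled Cpt2L-/- Ppara KO. A minimum log2 change of 1 left 550 higher and 632 lower, with 10 lysosomal and 10 ER genes, and against Cpt2 L-/- 356 and 194 for DKO and 705 and 504 for the other group. The replicate block, whose numbers do not pair the libraries, gave 839 higher and 703 lower, with 15 lysosomal genes higher and 10 ER genes lower. DESeq2 called 756 lower in DKO than in Cpt2 L-/- against 359 by edgeR, and fits of only the 2 groups compared gave 1473 higher and 1151 lower for DKO and 890 and 789 for the other group; the causes were not tested. Both limma fits on FPKM shifted the split of calls, to 1324 higher and 803 lower with a pseudocount of 1 and 1307 and 798 with 0.1. Reversals of uncalled genes were Atf4 at 0.017 without replicate 1 of the labelled Ppara KO group (range −0.31 to 0.017) and Fasn at −0.089 without DKO replicate 1, −0.28 without replicate 1 and −0.040 without replicate 2 of that group (range −0.28 to 0.37). Of the 106 named genes, RLE size factors changed the call of 0, all 24 libraries in the fit weakened 3 and strengthened 4, no filter weakened 5, the block weakened 8 and strengthened 1, and leaving out replicate 1 weakened 1 and strengthened 12. DESeq2 called 5 named genes that the edgeR fit of the 2 groups did not, Angptl4, Cidec, Creb3l3, Ehhadh and Plin2, and the edgeR fit of 3 groups called these except Cidec.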
